A study of Mus musculus with 7 samples.

Results

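The 9 genes described here carry arginine into the cell, turn it into nitric oxide or ornithine, and rebuild it. They were picked by symbol from the gene list of the series and are 9 of 32285 genes measured. Slc7a2 (ENSMUSG00000031596) is a transporter that brings arginine across the cell membrane. Nos2 (ENSMUSG00000020826) is the inducible nitric oxide synthase, and Gch1 (ENSMUSG00000037580) makes the first step towards tetrahydrobiopterin, the cofactor that the synthase needs. Arg1 (ENSMUSG00000019987) and Arg2 (ENSMUSG00000021125) are the cytosolic and the mitochondrial arginase, which split arginine into ornithine and urea. Ass1 (ENSMUSG00000076441) and Asl (ENSMUSG00000025533) join citrulline and aspartate and release arginine again. Odc1 (ENSMUSG00000011179) turns ornithine into putrescine, and Srm (ENSMUSG00000006442) turns putrescine into spermidine.

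Nitric oxide synthase and arginase use the same substrate. In mouse macrophages Nos2 is classically induced by interferon gamma and microbial products, Arg1 by interleukin 4 and interleukin 13, and both genes are known in macrophages of mouse tumours. Arg1 is also known to be induced through HIF transcription factors in mouse macrophages.

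The study compared leukocytes from the tumour-bearing left brain hemisphere of wild-type female mice, 8 to 9 weeks old, that carried GL261, a mouse glioma line. PT2385 is a small-molecule inhibitor of HIF-2α, given at 10 mg/kg from day 7 after implantation. ICB is immune checkpoint blockade with antibodies to PD-1 and TIM-3, and the combination is PT2385 with ICB. All tumours were taken on day 21, and CD45+ DRAQ7- cells (live leukocytes) were sorted. The groups held 2 libraries of the combination, 2 of PT2385, 2 of ICB and 1 labelled untreated. The treatment protocol also names a vehicle and isotype antibodies, and the labels do not say which pools received them. Each library is a pool of 5000 cells from each of 2 mice, so it is 1 replicate. A further untreated pool is not analysed here, and comparisons with untreated mice rest on 1 library, whose spread is taken to equal that of the treated groups.

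The window of 250 bases before the start of the gene was found for 3 of the 9 members in the RefSeq table of the GRCm38.p6 build. These windows are shown because the treatment targets a HIF subunit, and HIF dimers bind the core letters ACGTG or GCGTG. Capitals mark these letters on either strand, where the minus strand reads CACGT or CACGC, and the E-box CACGTG that overlaps them. The windows are chr2:31470020-31470269 on the plus strand for Ass1, chr12:17544623-17544872 on the plus strand for Odc1, and chr14:47189414-47189663 on the minus strand for Gch1.
Ass1: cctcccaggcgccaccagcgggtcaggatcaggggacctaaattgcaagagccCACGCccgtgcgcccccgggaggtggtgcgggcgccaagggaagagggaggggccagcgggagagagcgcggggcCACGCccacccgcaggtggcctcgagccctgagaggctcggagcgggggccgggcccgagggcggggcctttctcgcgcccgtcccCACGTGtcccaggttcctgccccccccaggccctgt
Odc1: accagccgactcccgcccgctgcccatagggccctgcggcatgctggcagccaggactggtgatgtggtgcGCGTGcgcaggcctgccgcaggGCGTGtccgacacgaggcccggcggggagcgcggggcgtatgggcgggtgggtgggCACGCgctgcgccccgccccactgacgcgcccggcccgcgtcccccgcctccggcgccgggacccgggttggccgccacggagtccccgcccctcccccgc
Gch1: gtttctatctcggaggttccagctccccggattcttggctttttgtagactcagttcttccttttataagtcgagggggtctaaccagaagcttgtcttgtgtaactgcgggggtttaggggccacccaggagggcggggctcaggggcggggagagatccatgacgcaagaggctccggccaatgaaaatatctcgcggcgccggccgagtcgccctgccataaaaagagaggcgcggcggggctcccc
The Ass1 window held 4 core matches, with first bases 197, 122, 36 and 35 bases before the start, and the nearest 2 overlap in CACGTG. The Odc1 window held 3 core matches, at 179, 157 and 101 bases, and the Gch1 window held 0. Of all 32851 windows of this length, 38.6% held at least 1 core match and 6.02% held CACGTG. The GC content was 75.6% in the Ass1 window, 80.0% in the Odc1 window and 59.2% in the Gch1 window. A match is a description of the letters, and the files hold no measurement of binding.

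The 7 libraries held between 59839154 and 81960504 unique molecular identifiers (UMIs, 1 per captured RNA molecule), and 38452 of 41033 barcodes passed the cell filters, 4654 to 7439 per library. Libraries shared 3 to 17 barcodes pairwise. Cells were placed in classes by counting marker genes, which gated 30580 cells and left 5918 in no class and 1954 in more than 1. In the 12520 macrophage-like cells the monocyte-derived markers Ms4a7 and Ccr2 were detected in 77.7% and 68.3% of cells and the microglial marker Sall1 in 1.0%. In the 4582 microglia-like cells P2ry12 was detected in 98.4% and Ms4a7 in 3.7%. These genes are among the markers that the gates counted, so their shares describe the gates and are no independent check of the classes. Of the 15645 macrophage-like and monocyte-like cells, 1271 lay near the boundary between these classes, with 2 to 5 UMIs of the complement genes C1qa, C1qb and C1qc. Choroid plexus RNA differed between libraries, and its markers summed to 234 and 269 CPM (counts-per-million, the scale of all levels below) in macrophage-like cells of the combination, against 11 and 3 CPM with PT2385, 47 and 93 CPM with ICB and 1 CPM in untreated mice. Choroid plexus-like cells themselves held at most 0.85 CPM of Nos2 and Arg1 over all libraries pooled.

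Levels below are CPM, taken over the summed UMIs of all genes in the cells of a class. They are compared between cells and not between genes. Because the cells of a class are summed, fewer expressing cells and less RNA per cell cannot be told apart in a level. The shares of cells given further on separate these only as far as 1 UMI is detected.

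Nos2, Arg1 and Slc7a2 were highest in mononuclear phagocytes, and the other members had each their own spread over the classes. Pooled over libraries, Nos2 stood at 174 CPM in monocyte-like cells, 159 CPM in macrophage-like cells and 80.0 CPM in cells with both microglia and macrophage markers. In microglia-like cells it stood at 0.831 CPM. The lymphocyte classes were taken as a background, and the part of free RNA in it was not tested. In these classes Nos2 ranged over libraries up to 6.34 CPM in CD4 T-like cells and 1.68 CPM in CD8 T-like cells. It ranged up to 2.40 CPM in NK-like cells and 0.724 CPM in regulatory T-like cells. Microglia-like Nos2 was within that range. Macrophage-like cells held 58.3% to 77.7% of the Nos2 UMIs of each library and 73.2% to 86.1% of its Arg1 UMIs.

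**Figure D1:**
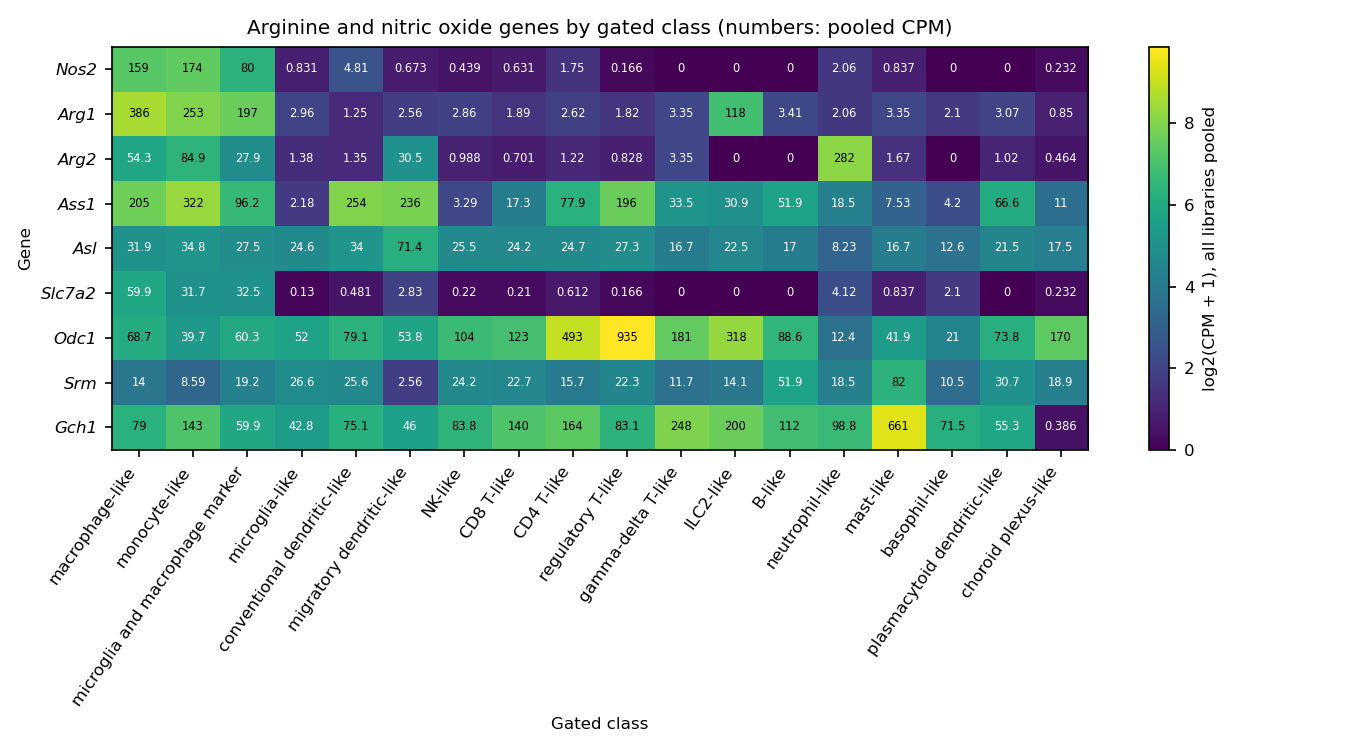
Level of the 9 arginine and nitric oxide genes (rows) in 18 gated classes of cells (columns), all 7 libraries pooled; colour is log2(CPM + 1) and the printed numbers are CPM. Nos2, Arg1 and Slc7a2 are high in the macrophage-like, monocyte-like and double-marker columns, whereas Odc1 peaks at 935 CPM in regulatory T-like cells and Gch1 at 661 CPM in mast-like cells.

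Arg1 followed with 386 CPM in macrophage-like cells, 253 CPM in monocyte-like cells and 197 CPM in the double-marker cells, and at most 3.41 CPM in B-, T- and NK-like cells. Outside the phagocytes, ILC2-like cells (group 2 innate lymphoid cells, which are known to hold Arg1 in mice) stood at 118 CPM. That value rests on 42 UMIs in 65 cells. It was seen in every library, at 128 and 87.2 CPM in the combination, 62.3 and 55.7 CPM with PT2385, 137 and 182 CPM with ICB and 193 CPM in untreated mice. Slc7a2 reached 59.9 CPM in macrophage-like cells, 32.5 CPM in the double-marker cells and 31.7 CPM in monocyte-like cells, and at most 0.612 CPM in T- and NK-like cells. Microglia-like cells held 0.13 CPM of this transporter.

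Arg2, the mitochondrial arginase, was highest in neutrophil-like cells at 282 CPM, a value of 137 UMIs in 87 cells. Monocyte-like cells followed at 84.9 CPM, macrophage-like cells at 54.3 CPM and migratory dendritic-like cells at 30.5 CPM. The neutrophil-like level over libraries lay between 0 and 507 CPM with 3 to 40 cells a library, so it overlaps the monocyte-like range of 31.7 to 105 CPM. Arg2 and Arg1 therefore parted in neutrophil-like cells, where Arg1 stood at 2.06 CPM.

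Ass1, the first enzyme of arginine resynthesis, stood at 322 CPM in monocyte-like cells, 254 CPM in conventional dendritic-like cells, 236 CPM in migratory dendritic-like cells, 205 CPM in macrophage-like cells and 196 CPM in regulatory T-like cells. Microglia-like cells held 2.18 CPM of Ass1 and NK-like cells 3.29 CPM. Within the T lineage the libraries did not overlap: regulatory T-like cells ranged over libraries between 162 and 237 CPM, and CD4 T-like cells between 49.6 and 104 CPM. Asl, which completes the resynthesis, was far more even. Migratory dendritic-like cells led with 71.4 CPM (51.4 to 97.6 CPM over libraries), and the other classes tested below lay at 24.2 to 34.8 CPM.

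Of the polyamine genes, Odc1 was highest in T-like cells. It stood at 935 CPM in regulatory T-like cells, where the libraries ranged between 670 and 1217 CPM, and at 493 CPM in CD4 T-like cells, where they ranged between 367 and 712 CPM. T-like cells of no named subset followed at 431 CPM and ILC2-like cells at 318 CPM. CD8 T-like cells held 123 CPM, macrophage-like cells 68.7 CPM and monocyte-like cells 39.7 CPM. Srm ranged between 2.56 CPM in migratory dendritic-like cells and 26.6 CPM in microglia-like cells among the classes tested below. It was higher in some small classes, at 82 CPM in the 170 mast-like, 124 CPM in the 83 neural or glioma-like and 127 CPM in the 17 plasma-like cells. Gch1 was highest in mast-like cells at 661 CPM. Its libraries there stood at 310 and 790 CPM in the combination, 591 and 768 CPM with PT2385, 682 and 457 CPM with ICB and 721 CPM in untreated mice. The lowest of these was still above every library of the CD4 T-like cells, at 128 to 212 CPM, and of the monocyte-like cells, at 99.2 to 205 CPM.

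Treatments were compared on UMI counts summed per library and class, with edgeR's quasi-likelihood test and Benjamini-Hochberg adjustment over all genes of the class, and called at an adjusted p under 0.05. The PT2385 effect sets the 4 libraries with PT2385 against the 3 without, and the ICB effect the 4 with ICB against the 3 without, in 1 additive model. The replicates are pools, so the p-values measure the spread between these pools. Where libraries with and without a treatment are said below not to overlap, this only describes the values. The share of all genes that split in this way was not counted.

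Nos2 was the member that moved most with PT2385. In monocyte-like cells it stood at 83.2 and 210 CPM in the combination and 540 and 426 CPM with PT2385, against 14.4 and 14.7 CPM with ICB and 53.2 CPM in untreated mice. Every library with PT2385 lay above every library without it. The PT2385 effect was a log2 fold change of 3.21 ± 0.28 (SE, adjusted p = 0.00171), and Nos2 was the 1 member called of 9 tested in a class where 2.81% of all genes were called. It was also called under all 15 alternatives, with an adjusted p up to 0.0468 when single libraries were left out.

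In macrophage-like cells Nos2 stood at 57.7 and 197 CPM in the combination and 418 and 263 CPM with PT2385, against 8.35 and 22.2 CPM with ICB and 51.3 CPM in untreated mice. The groups again did not overlap, with combination 1 nearest to the untreated library. The PT2385 effect was 2.91 ± 0.52 (SE, log2) with an adjusted p of 0.0783, so Nos2 was not called there. DESeq2 on the same sums called it (adjusted p = 0.000342), as did edgeR without a filter on low counts (adjusted p = 0.0399), without ICB 1 (adjusted p = 0.0396) and without ICB 2 (adjusted p = 0.0362). Of the 9 members 0 were called for PT2385 in this class, where 0.13% of genes were called, 2747 genes had an unadjusted p under 0.05 and DESeq2 called 743.

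**Figure D2:**
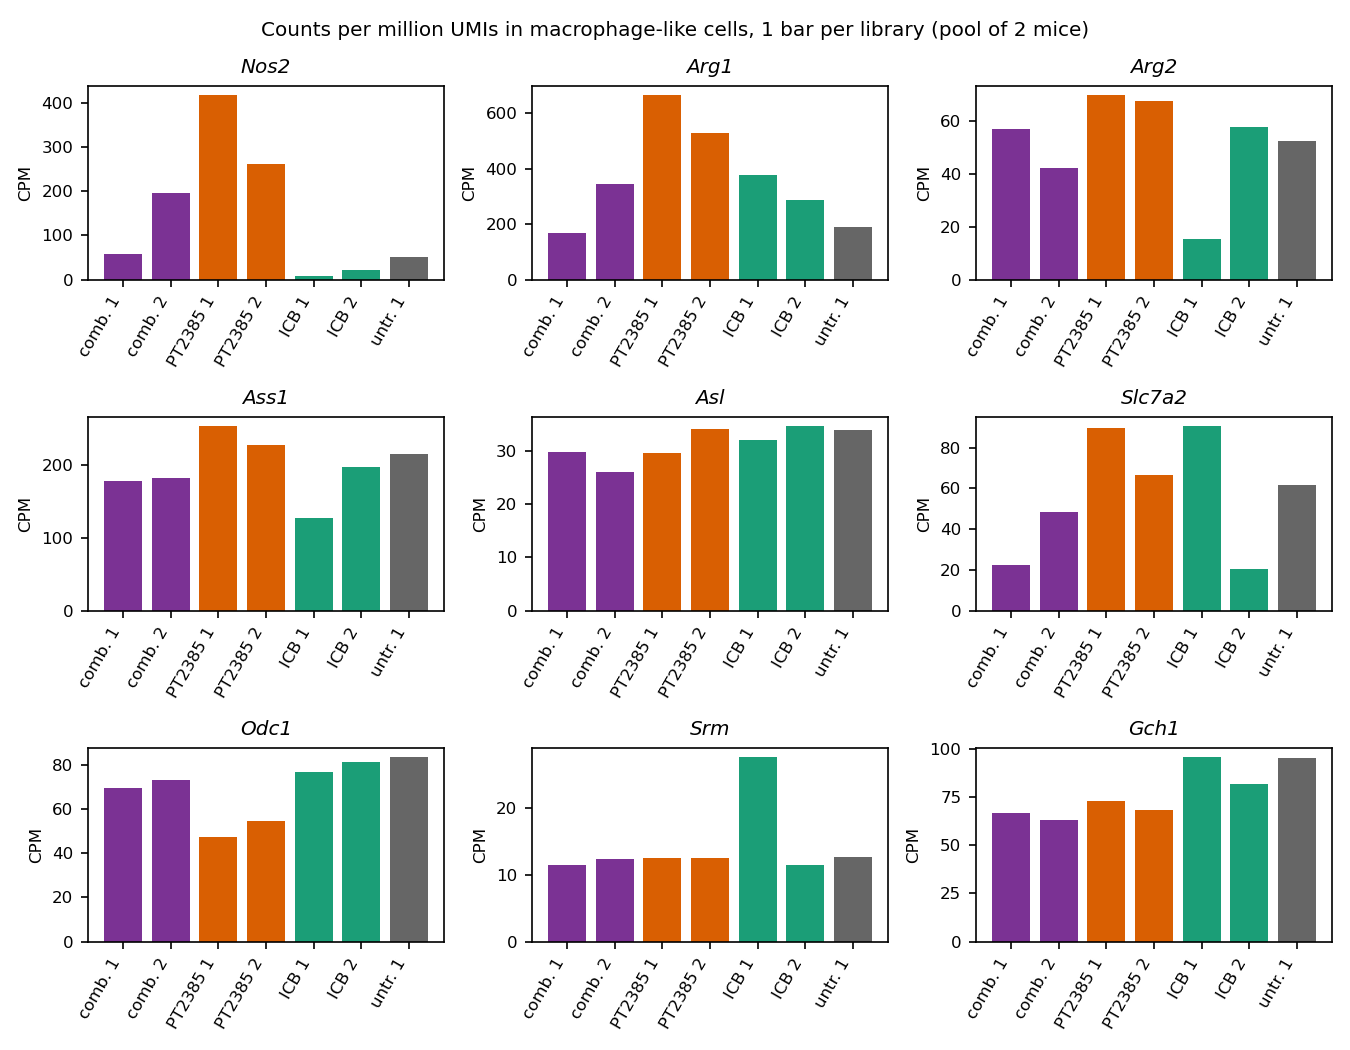
CPM of each of the 9 members in macrophage-like cells, 1 bar per library, with the combination, PT2385, ICB and untreated libraries from left to right. Nos2 is highest in PT2385 1 and PT2385 2 at 418 and 263 CPM and lowest in ICB 1 and ICB 2 at 8.35 and 22.2 CPM, while Gch1 is at 63.0 to 72.7 CPM in the 4 libraries with PT2385 and at 81.9 to 95.7 CPM in the 3 without.

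Both libraries of ICB lay below the untreated library for Nos2, and both of the combination lay below those of PT2385. The ICB effect on Nos2 was -1.80 ± 0.25 (SE, log2) in monocyte-like cells (adjusted p = 0.110) and -1.55 ± 0.47 in macrophage-like cells (adjusted p = 0.501), neither called. For ICB, 0 of 9 members were called in monocyte-like cells, where 0.00911% of genes were called, and 0 of 9 in macrophage-like cells, where the share was 0%. There 1219 genes of the macrophage-like class had an unadjusted p under 0.05 and DESeq2 called 58. In monocyte-like cells the Nos2 ICB effect was called under 6 of 15 alternatives, among them DESeq2 and leaving out ICB 1, ICB 2 or combination 2.

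Set against its single treatments, the combination held more Nos2 than ICB and less than PT2385. In monocyte-like cells combination against ICB gave a log2 fold change of 3.30 ± 0.39 (SE, adjusted p = 0.0489), the 1 member called of 9, where 0.0365% of genes were called. This call sat at the threshold and was lost under 8 of 14 alternatives, for example at an adjusted p of 0.0505 with DESeq2's size factors in edgeR. Combination against PT2385 gave -1.74 ± 0.33 (adjusted p = 0.353) and combination against untreated 1.38 ± 0.43 (adjusted p = 0.377). In these comparisons 0 of 9 members were called in monocyte-like cells, where 0.0182% and 0.00911% of genes were. In macrophage-like cells combination against ICB gave 3.06 ± 0.72 (adjusted p = 0.362), combination against PT2385 -1.41 ± 0.67 (adjusted p = 0.997) and combination against untreated 1.29 ± 0.85 (adjusted p = 0.676). With 1 mean per group, edgeR called 0% of genes and 0 members in macrophage-like cells in each of the 3 comparisons. Unadjusted p-values under 0.05 numbered 1646, 717 and 1408, and DESeq2 called 187, 24 and 102 genes.

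In the double-marker cells Nos2 stood at 23.6 and 61.5 CPM in the combination and 217 and 71.7 CPM with PT2385, against 1.46 and 8.84 CPM with ICB and 24.0 CPM in untreated mice. Combination 1 was thus just below the untreated library, and the effect was 2.67 ± 0.52 (SE, log2, adjusted p = 0.184). In the lymphocyte and dendritic classes Nos2 was too low to read a direction, and in conventional dendritic-like cells the level of 42.1 CPM in combination 1 came from 32 UMIs in 1 of 36 cells.

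Arg1 did not follow the same pattern. In macrophage-like cells it stood at 169 and 346 CPM in the combination and 664 and 529 CPM with PT2385, against 376 and 287 CPM with ICB and 189 CPM in untreated mice. Both libraries of PT2385 alone lay above all others, and combination 1 lay below the untreated library. The PT2385 effect over all 4 libraries was 0.39 ± 0.45 (SE, log2, adjusted p = 0.676), and its sign turned to -0.31 without the untreated library. The ICB effect was -0.50 ± 0.44 (adjusted p = 0.773).

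In monocyte-like cells Arg1 stood at 89.9 and 240 CPM in the combination and 516 and 416 CPM with PT2385, against 297 and 207 CPM with ICB and 72.6 CPM in untreated mice. The order of groups repeated that of the macrophage-like cells of the same libraries. The PT2385 effect was 0.50 ± 0.63 (SE, log2, adjusted p = 0.742). It ran between -0.62 and 1.28 over the leave-outs, with the lowest value without the untreated library.

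The combination held less Arg1 than PT2385 alone. The log2 fold change was -1.20 ± 0.32 (SE, adjusted p = 0.870) in macrophage-like cells and -1.51 ± 0.36 (adjusted p = 0.682) in monocyte-like cells, neither called. The interaction, which asks whether PT2385 changed Arg1 differently with ICB than without it, was -1.94 ± 0.52 (adjusted p = 0.987) and -3.23 ± 0.60 (adjusted p = 0.870). Their unadjusted p-values were 0.00900 and 0.000476. Of all genes edgeR called 0% for the interaction in either class. In macrophage-like cells 505 genes and in monocyte-like cells 466 genes had an unadjusted p under 0.05, and DESeq2 called 9 and 1 genes.

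Border-type macrophage markers, which belong to macrophages of the brain's borders, also differed between libraries. They summed to 241 and 195 CPM in macrophage-like cells of the combination and 205 and 191 CPM with PT2385, against 716 and 336 CPM with ICB and 317 CPM in untreated mice. Macrophage-like cells with at least 3 of the 6 border markers (29 to 248 a library) held 229 and 375 CPM of Arg1 in the combination, 763 and 513 CPM with PT2385, 798 and 346 CPM with ICB and 391 CPM in untreated mice. The remaining cells held 162 and 345 CPM, 661 and 530 CPM, 289 and 279 CPM and 157 CPM in the same order of groups. Arg1 was thus higher in the border-marker cells of 6 of 7 libraries, all but PT2385 2, and PT2385 alone stayed highest among the remaining cells. For Nos2 the border-marker cells were lower in 6 of 7 libraries, all but combination 1. These splits were chosen after the data were seen and carry no test.

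Gch1 was lower with PT2385, by a small and even amount. In macrophage-like cells it stood at 66.5 and 63.0 CPM in the combination and 72.7 and 68.5 CPM with PT2385, against 95.7 and 81.9 CPM with ICB and 95.1 CPM in untreated mice. The groups did not overlap. The effect was -0.43 ± 0.06 (SE, log2, adjusted p = 0.0652), not called. It was called under 5 of 15 alternatives, among them DESeq2 (adjusted p = 4.32e-05) and leaving out ICB 1 or ICB 2. In monocyte-like cells, at 106 and 136 CPM in the combination and 99.2 and 119 CPM with PT2385, against 205 and 137 CPM with ICB and 174 CPM in untreated mice, the effect was -0.60 ± 0.14 (adjusted p = 0.0591). Combination 2 and ICB 2 were the closest pair there, 136 against 137 CPM.

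The direction was shared outside the phagocytes. Gch1 was lower with PT2385 in 8 of 10 classes tested, with log2 fold changes between -0.76 and 0.10 and 0 called. In NK-like cells it stood at 67.8 and 76.1 CPM in the combination and 71.1 and 65.5 CPM with PT2385, against 86.9 and 98.3 CPM with ICB and 105 CPM in untreated mice, again without overlap (-0.45 ± 0.14, SE, log2, adjusted p = 0.172). The exceptions were microglia-like and regulatory T-like cells. Other members leaned the same way with PT2385. Asl was lower in 9 of 10 classes, Srm in 9 of 9 and Odc1 in 8 of 10. Ass1 was lower in 7 of 9 and Slc7a2 in 2 of 3. Arg1 was higher in 3 of 4 classes, Arg2 in 4 of 5 and Nos2 in 5 of 5. The Nos2 count includes CD4 T-like cells, at a mean of 1.73 CPM. In the lymphocyte and dendritic classes Nos2 was too low to read a direction. The classes come from the same libraries, so these counts of classes are not counts of independent results.

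Odc1 in macrophage-like cells stood at 69.6 and 73.4 CPM in the combination and 47.4 and 54.8 CPM with PT2385, against 76.7 and 81.6 CPM with ICB and 83.6 CPM in untreated mice. All 4 libraries with PT2385 lay below the 3 without, and those of PT2385 alone were the lowest. The PT2385 effect was -0.37 ± 0.14 (SE, log2, adjusted p = 0.220), and combination against PT2385 was 0.50 ± 0.12 (adjusted p = 0.843). In the T-like classes with the highest Odc1, the PT2385 effect was -0.35 ± 0.16 in CD4 T-like cells (adjusted p = 0.629) and 0.07 ± 0.17 in regulatory T-like cells (adjusted p = 0.968).

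Srm in macrophage-like cells stood at 11.4 and 12.3 CPM in the combination and 12.5 and 12.6 CPM with PT2385, against 27.5 and 11.5 CPM with ICB and 12.6 CPM in untreated mice. Only ICB 1 stood apart. Its Srm level was also the highest of the 7 libraries in microglia-like cells (38.3 CPM, against 20.5 to 28.9 CPM in the others). Srm was lower with PT2385 in 9 of 9 classes and higher with ICB in 9 of 9, with 0 called. ICB 1 lies on the side without PT2385 and on the side with ICB, so it enters both counts. The classes share these libraries, so their counts are not counts of independent results. In macrophage-like cells the PT2385 effect was -0.40 ± 0.26 (SE, log2, adjusted p = 0.455), and without ICB 1 the ICB effect of 0.18 ± 0.27 turned negative. The PT2385 effect there ran between -0.63 and -0.017 over single libraries left out.

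**Figure D3:**
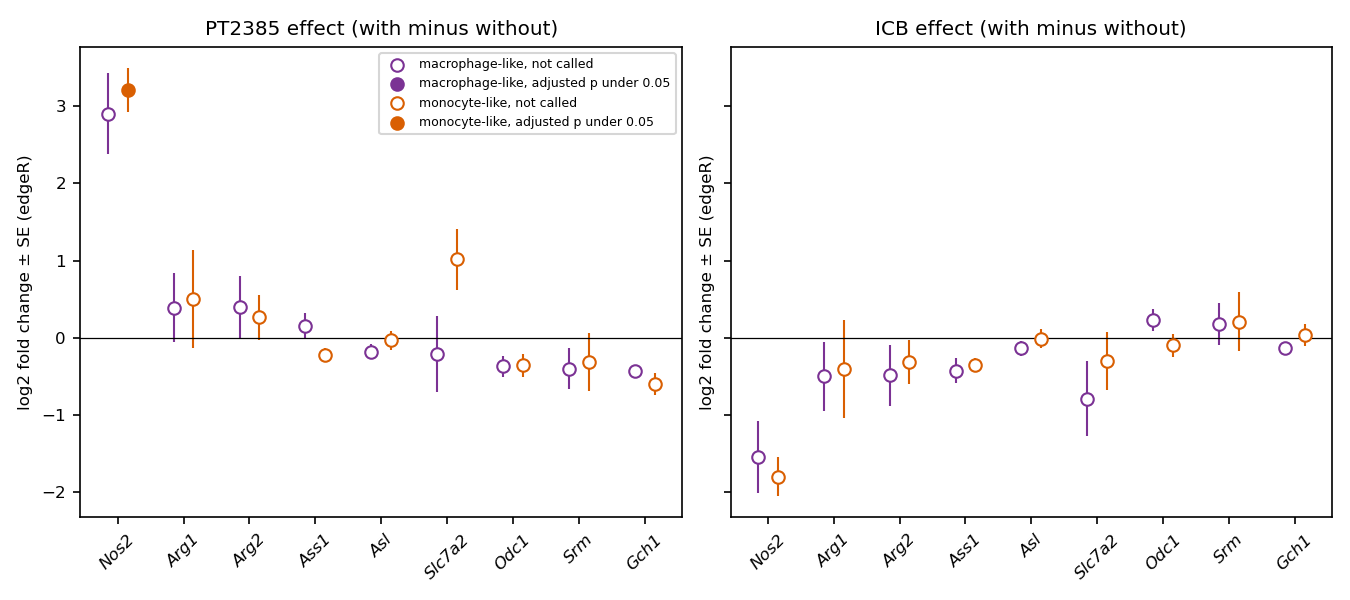
log2 fold change ± SE from edgeR of each member for PT2385 (left) and for ICB (right), with treatment minus without, in macrophage-like (purple) and monocyte-like cells (orange); filled points have an adjusted p under 0.05. The 1 filled point is Nos2 for PT2385 in monocyte-like cells at 3.21, and Gch1 lies below 0 for PT2385 in both classes.

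Ass1 was called lower with ICB in 1 class, the double-marker cells. In the double-marker cells it stood at 55.3 and 51.3 CPM in the combination and 55.6 and 60.5 CPM with ICB, against 147 and 103 CPM with PT2385 and 133 CPM in untreated mice. The groups with and without ICB did not overlap, and the effect was -1.29 ± 0.14 (SE, log2, adjusted p = 0.00394). It was called under all 15 alternatives, and Ass1 was the 1 member of 9 called in a class where 2.77% of genes were. Ass1 also fell in the combination against PT2385 (-1.33 ± 0.19, adjusted p = 0.00712) and against untreated (-1.42 ± 0.22, adjusted p = 0.0191). Each of the last comparisons lost its call under 3 alternatives.

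These double-marker cells (931 in all) had median UMIs of 18141 to 27681 per library, against 6550 to 8884 in microglia-like and 10878 to 15688 in macrophage-like cells. Pairs of 1 microglia and 1 macrophage in 1 droplet may be among them, and their part in the result was not tested. Their monocyte-derived macrophage markers (8 of 8 in at least 10% of cells) summed to 2076 and 1679 CPM in the combination, 2747 and 2582 CPM with PT2385, 3303 and 2481 CPM with ICB and 3479 CPM in untreated mice. The microglial markers (7 of 7) summed to 3345 and 4504 CPM, 1770 and 2168 CPM, 2465 and 2809 CPM and 2241 CPM in the same order. The microglial sum was thus higher in every library with ICB than in every library without, the same split as for Ass1. The macrophage sum was lowest in the combination and did not split by ICB. Pooled over libraries, Ass1 stood at 2.18 CPM in microglia-like and 205 CPM in macrophage-like cells. The part of the balance of both marker lists in the Ass1 level was not tested.

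In macrophage-like cells Ass1 stood at 177 and 182 CPM in the combination and 128 and 197 CPM with ICB, against 253 and 227 CPM with PT2385 and 215 CPM in untreated mice. No library with ICB reached those without, and the effect was -0.43 ± 0.17 (SE, log2, adjusted p = 0.570). In monocyte-like cells it was -0.35 ± 0.09 (adjusted p = 0.336), and neither effect was called. Outside the phagocytes the ICB effect was 0.27 ± 0.19 in conventional dendritic-like cells (adjusted p = 0.951) and 0.13 ± 0.15 in regulatory T-like cells (adjusted p = 0.983).

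Arg1 was the other member called in the double-marker cells. It stood at 13.2 and 113 CPM in the combination, against 432 and 204 CPM with PT2385, a log2 fold change of -2.44 ± 0.63 (SE, adjusted p = 0.0466). With Ass1, 2 of 9 members were called for combination against PT2385, where 8.2% of all genes were called. For combination against untreated it was 1 of 9 with 1.71% of genes called, and for PT2385 0 of 9 with 0.00858%. The Arg1 call was lost under 7 of 14 alternatives. In microglia-like cells combination against PT2385 also gave calls for Arg1 (-2.92 ± 0.67, adjusted p = 0.0490) and Ass1 (-2.37 ± 0.52, adjusted p = 0.0420), 2 of 7 members tested where 2.35% of genes were called. Each of these calls was lost under 7 of 14 alternatives. Arg1 there was 0.754 and 1.5 CPM in the combination, against 8.70 and 8.59 CPM with PT2385, and Ass1 was 1.18 and 0.975 CPM, against 3.48 and 7.16 CPM. For comparison, NK-like cells, with median UMIs of 4746 to 7597, held up to 6.80 CPM of Arg1 and up to 4.09 CPM of Ass1 in a library. The part of free RNA in these low levels was not tested.

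Gch1 in microglia-like cells stood apart from the other classes. It was at 50.7 and 42.5 CPM in the combination and 39.6 and 52.7 CPM with ICB, against 28.3 and 30.1 CPM with PT2385 and 27.8 CPM in untreated mice. Every library with ICB lay above every library without, and the effect was 0.64 ± 0.15 (SE, log2, adjusted p = 0.112), not called. For ICB 0 of 7 members were called in microglia-like cells, where 0.267% of genes were, and for PT2385 0 of 7, where 0.00809% were. The PT2385 effect on Gch1 in these cells was 0.01 ± 0.14.

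Slc7a2 varied between pools of the same group. In macrophage-like cells it stood at 22.4 and 48.3 CPM in the combination and 89.6 and 66.6 CPM with PT2385, against 90.6 and 20.5 CPM with ICB and 61.8 CPM in untreated mice. ICB 1 and ICB 2 held the highest and the lowest value of the 7. The PT2385 effect was -0.21 ± 0.49 (SE, log2, adjusted p = 0.852) and -0.55 to 0.51 over the leave-outs. In monocyte-like cells, at 16.0 and 59.5 CPM in the combination and 55.7 and 51.4 CPM with PT2385, against 33.1 and 13.4 CPM with ICB and 19.7 CPM in untreated mice, it was 1.02 ± 0.39 (adjusted p = 0.207).

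Arg2 in macrophage-like cells stood at 57.0 and 42.4 CPM in the combination and 69.9 and 67.8 CPM with PT2385, against 15.4 and 57.9 CPM with ICB and 52.5 CPM in untreated mice. ICB 1 stood below the rest. The PT2385 effect was 0.40 ± 0.41 (SE, log2, adjusted p = 0.630). Asl changed least, between 26.0 and 34.6 CPM over all libraries, with a PT2385 effect of -0.18 ± 0.10 (adjusted p = 0.370).

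In the lymphocyte and dendritic classes 0 members were called for either treatment. For PT2385 this was 0 of 6 in CD4 T-like cells with 0.0738% of genes called, 0 of 5 in CD8 T-like cells with 0.0389%, 0 of 4 in NK-like cells with 0.503%, 0 of 5 in regulatory T-like cells with 0.0335%, 0 of 6 in conventional dendritic-like cells with 0.0202% and 0 of 5 in migratory dendritic-like cells with 0.0932%. For ICB the shares of genes called were 0.185% in CD4 T-like, 0.0583% in CD8 T-like, 0.0628% in NK-like, 0.0112% in regulatory T-like, 0.0101% in conventional dendritic-like and 0.0233% in migratory dendritic-like cells. Unadjusted p-values under 0.05 for PT2385 numbered 846 genes in CD4 T-like and 974 in NK-like cells. With so few genes called in these classes, a count of 0 members does not show that the levels were equal.

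Of 53 further genes of arginine, polyamine, biopterin and nitric oxide signalling, 40 were tested in macrophage-like cells and 0 were called in any comparison. Their median log2 fold change was -0.12 for PT2385, against -0.01 over all genes, and 0.09 for ICB, against 0.01. In microglia-like cells 37 were tested. Slc7a1, another arginine transporter, fell in the combination against ICB (-1.17 ± 0.16, SE, log2, adjusted p = 0.0296), where 0.0648% of genes were called. Against PT2385, Amd1, the decarboxylase that feeds spermidine synthesis, rose in the combination (0.79 ± 0.16, adjusted p = 0.0266), where 2.35% of genes were called. Smox, the spermine oxidase, was called for PT2385 in monocyte-like cells (-0.90 ± 0.15, adjusted p = 0.0153, 1 of 34 tested) and in NK-like cells (-1.03 ± 0.21, adjusted p = 0.0287, 1 of 28 tested). Over all genes 2.81% and 0.503% were called in these classes, so the count in monocyte-like cells is near its background. Smox is named here after its values were seen. In the double-marker cells 35 of the list were tested. There 3 were called higher and 2 lower in the combination against PT2385, where 8.2% of all genes were called. The genes of these calls are not named. Smox in these cells stood at -0.97 (log2) for the combination against untreated.

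Nos2 and Arg1 were then followed in single macrophage-like cells. A cell was counted for a gene with at least 1 UMI. Nos2 was detected in 11.3% and 32.0% of cells in the combination and 49.0% and 38.2% with PT2385, against 4.28% and 5.64% with ICB and 13.7% in untreated mice. Arg1 was detected in 21.6% and 34.6% of cells in the combination and 53.9% and 43.9% with PT2385, against 41.2% and 33.3% with ICB and 29.8% in untreated mice. Median UMIs per cell were 15688 and 15456 in the combination and 14620 and 13873 with PT2385, against 13856 and 13235 with ICB and 10878 in untreated mice, so the untreated cells were the shallowest.

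As a background, 0.173% to 0.76% of CD4 T-, CD8 T-, NK- and regulatory T-like cells had a Nos2 UMI over all libraries and 1.73% to 2.05% had an Arg1 UMI, at lower depths (medians of 4746 to 7597 UMIs in NK-like and 6673 to 8209 in CD4 T-like cells).

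Some cells held UMIs of both genes. Both were detected in 4.07% and 16.9% of cells in the combination and 30.8% and 22.0% with PT2385, against 2.49% and 2.41% with ICB and 5.42% in untreated mice. These were 37 and 171 cells, 641 and 476 cells, 35 and 50 cells and 156 cells. The product of the single shares would give 2.44% and 11.1%, 26.4% and 16.8%, 1.76% and 1.88%, and 4.10% in the same order. The share with both was above the product in all 7 libraries. With at least 2 UMIs of each gene asked for, the share with both was 2.86% and 11.2% in the combination and 23.1% and 16.1% with PT2385, against 1.14% and 1.25% with ICB and 2.92% in untreated mice.

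The odds ratio of the detection of both genes, which is 1 where they are independent, was 2.28 and 3.17 in the combination and 2.04 and 2.47 with PT2385, against 2.06 and 1.53 with ICB and 1.65 in untreated mice. A deeper cell can show both genes more easily. Pooled over 5 bins of UMIs per cell the odds ratio was 2.15 and 2.98, 1.90 and 2.42, 2.09 and 1.47, and 1.53 in the same order. With every cell thinned to 5000 UMIs, which left out 53 to 230 shallower cells a library, it was 1.92 and 2.81, 2.04 and 2.69, 1.52 and 1.75, and 1.73. All stayed above 1. In monocyte-like cells it was 1.45 and 3.23, 2.15 and 2.82, 2.55 and 3.09, and 2.10.

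**Figure D4:**
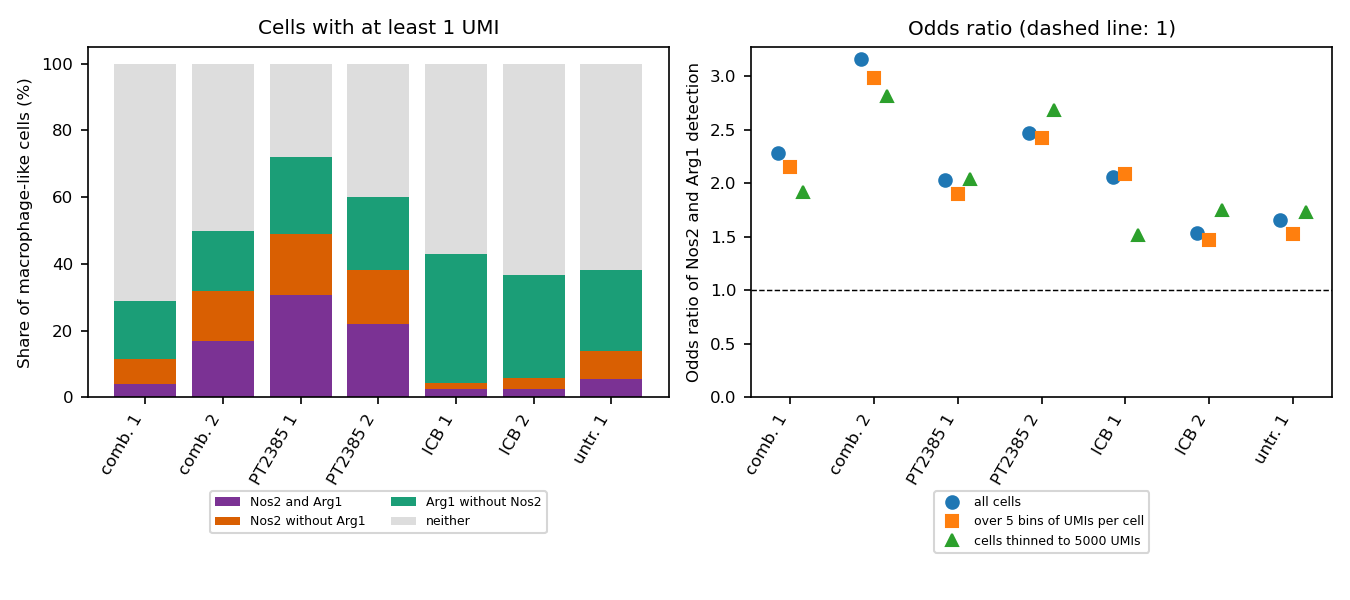
Left, share of macrophage-like cells (%) in each library with at least 1 UMI of Nos2 and Arg1, of Nos2 without Arg1, of Arg1 without Nos2, or of neither. Right, odds ratio of Nos2 and Arg1 detection per library over all cells, pooled over 5 bins of UMIs per cell, and after thinning to 5000 UMIs; all points lie above the dashed line at 1, and the purple share is largest in PT2385 1 at 30.8%.

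Read from the Nos2 side, Arg1 was detected in 35.9% and 52.8% of Nos2-positive cells in the combination and 62.8% and 57.6% with PT2385, against 58.3% and 42.7% with ICB and 39.5% in untreated mice. Among Nos2-negative cells it was 19.7% and 26.1%, 45.4% and 35.5%, 40.4% and 32.7%, and 28.3%. Read from the Arg1 side, Nos2 was detected in 18.9% and 48.7% of Arg1-positive cells in the combination and 57.1% and 50.1% with PT2385, against 6.06% and 7.25% with ICB and 18.2% in untreated mice. Every library with PT2385 lay above every library without it, though combination 1 by less than 1 percentage point.

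Over libraries, the share of cells with both genes was 18.4 ± 11.2% with PT2385 (SD, n = 4) and 3.44 ± 1.72% without (SD, n = 3; exact two-sided permutation p = 0.114, 0.171 adjusted over 6 comparisons). For Nos2 alone it was 32.6 ± 15.8% with PT2385 and 7.88 ± 5.11% without (exact two-sided permutation p = 0.114). Arg1 stood at 38.5 ± 13.8% with PT2385 and 34.8 ± 5.83% without (exact two-sided permutation p = 0.629). For ICB the share with both was 6.46 ± 6.98% with and 19.4 ± 12.9% without (exact two-sided permutation p = 0.114). The share of Nos2-positive cells among Arg1-positive cells was 43.7 ± 16.9% with PT2385 and 10.5 ± 6.68% without (exact two-sided permutation p = 0.0571). After thinning to 5000 UMIs these groups overlapped, at 35.7 ± 17.3% with PT2385 and 7.71 ± 5.56% without (exact two-sided permutation p = 0.114). With 4 against 3 libraries, 0.0571 is the smallest p this test can give, so no share could pass 0.05.

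The amount of Nos2 per positive cell differed along with the share of positive cells. Nos2-positive cells held on average 8.53 and 10.1 Nos2 UMIs in the combination and 13.6 and 10.4 with PT2385, against 3.03 and 5.63 with ICB and 4.51 in untreated mice. The 4 libraries with PT2385 lay above the 3 without. Arg1-positive cells held 13.2 and 16.4 Arg1 UMIs in the combination and 19.5 and 18.2 with PT2385, against 14.2 and 12.3 with ICB and 7.67 in untreated mice. These means are not scaled to depth. Over the UMIs of the positive cells, Arg1 stood at 651 and 903 CPM in the combination and 1144 and 1125 CPM with PT2385. It stood at 805 and 810 CPM with ICB and 528 CPM in untreated mice. Combination 1 was thus below both libraries of ICB on this scale. For Nos2 the libraries with PT2385 stayed above those without. A single cell reached 145 UMIs of Nos2 and another 227 UMIs of Arg1.

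The remaining members were compared between cells with both genes, Nos2 only, Arg1 only and neither, within each library. Cells with both genes had median UMIs of 12986 to 23714 per library, against 10076 to 14825 in cells with neither. Levels are CPM over the UMIs of the same cells, and the part of depth in them was not tested. The tests are exact two-sided sign-flip permutation tests over the 7 libraries, adjusted over 28 comparisons, and the smallest p they can give before adjustment is 0.0156. Genes outside the members were not compared between these states. The differences below are therefore not shown to be particular to the members.

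Slc7a2, the arginine transporter, followed both genes. It stood at 168 and 132 CPM in cells with both genes in the combination, 161 and 139 CPM with PT2385, 186 and 151 CPM with ICB and 224 CPM in untreated mice. In cells with neither it stood at 6.49 and 15.3 CPM, 24.0 and 18.9 CPM, 16.1 and 11.1 CPM, and 23.1 CPM. The mean log2 difference of cells with both genes from Arg1-only cells was 1.96 and higher in 7 of 7 libraries (exact permutation, adjusted p = 0.0292). Nos2-only cells differed from cells with neither by 2.44 and Arg1-only cells by 1.38, each in 7 of 7 libraries (exact permutation, adjusted p = 0.0292).

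Ass1 and Gch1 were higher in cells with Nos2. Nos2-only cells held 285 CPM of Ass1 on average over libraries and Arg1-only cells 173 CPM, a mean log2 difference of 0.73 in 7 of 7 libraries (exact permutation, adjusted p = 0.0292). Arg1-only cells and cells with neither differed by 0.00 (adjusted p = 0.984). Gch1 stood at 104 CPM in Nos2-only and 70.2 CPM in Arg1-only cells, a difference of 0.53 in 7 of 7 libraries (exact permutation, adjusted p = 0.0292), and Arg1-only cells differed from neither by -0.06 (adjusted p = 0.396). Gch1 was thus higher in Nos2-positive cells of every library, while its level over the whole class was lower in the libraries with PT2385.

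Arg2 was higher with either gene. Its mean log2 difference from cells with neither was 0.98 for Nos2-only and 0.41 for Arg1-only cells, each in 7 of 7 libraries (exact permutation, adjusted p = 0.0292). Odc1 rose by 0.15 and 0.26 on the same scale, each in 7 of 7 libraries (exact permutation, adjusted p = 0.0292). Srm was lower in Nos2-only cells than in cells with neither in 7 of 7 libraries, with a mean log2 difference of -0.66 (exact permutation, adjusted p = 0.0292). The differences ran between -2.04 and -0.09. Nos2-only cells held few Srm UMIs: 2 in 25 cells of ICB 1, 7 in 67 of ICB 2 and 8 in 66 of combination 1. In cells with both genes Srm was above cells with neither in these libraries and below in the rest. Asl differed by -0.04 and 0.03 (adjusted p = 0.956 and 0.693).

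**Figure D5:**
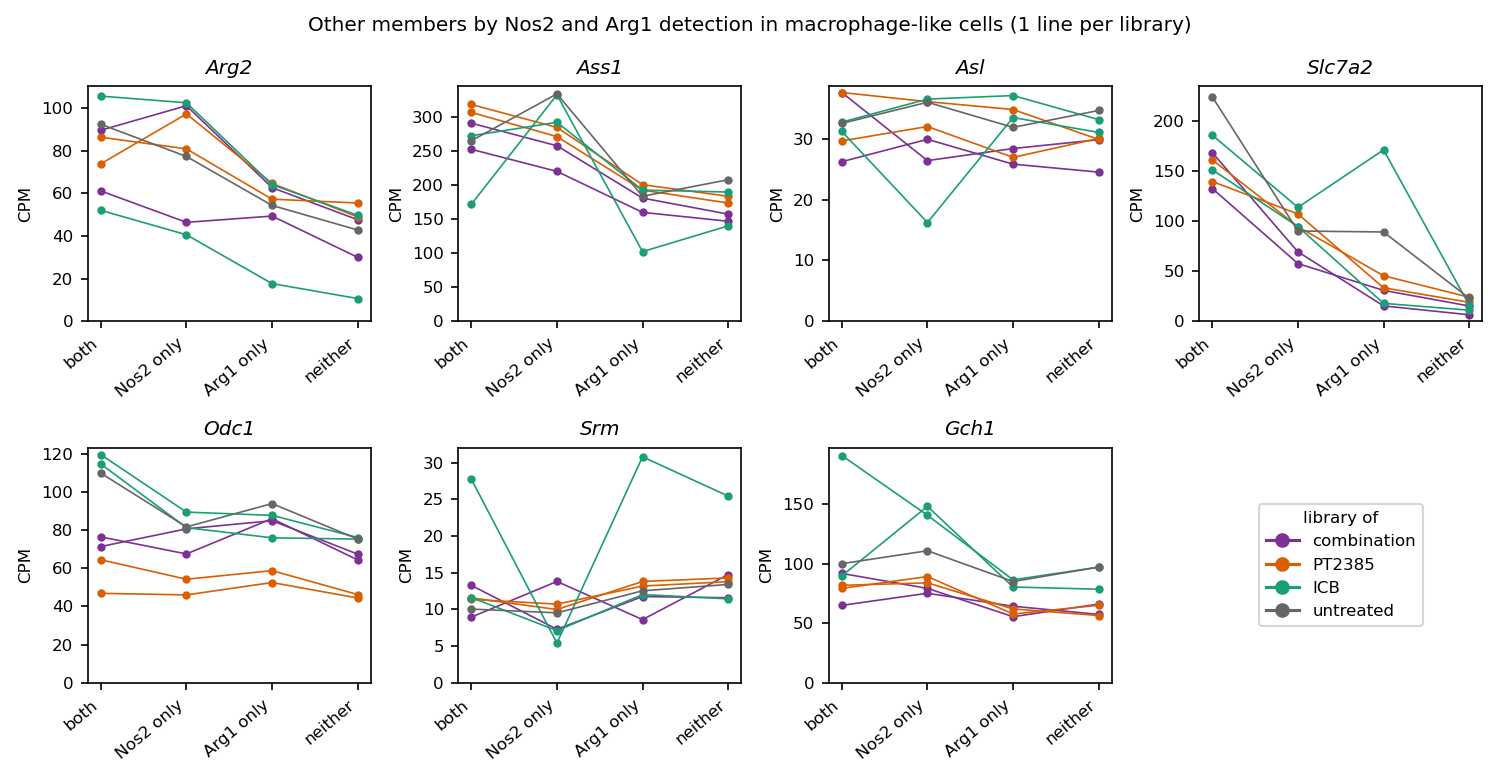
CPM of the other 7 members in macrophage-like cells with Nos2 and Arg1 UMIs (both), Nos2 only, Arg1 only or neither; each line joins the 4 values of 1 library and colours give the group. Slc7a2 falls in every library between both (132 to 224 CPM) and neither (6.49 to 24.0 CPM), Ass1 and Gch1 are higher in Nos2-only than in Arg1-only cells in 7 of 7 libraries, and Asl is level but for ICB 1.

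The genes most like Nos2 and Arg1 were named by the correlation of log2(CPM + 1) over 82 profiles of a class in a library, from 17 classes and 6835 genes. For Nos2 they were F10 (Pearson r 0.878), Arg1 (0.876), Flt1 (0.871), F13a1 (0.869) and Apoc2 (0.868). For Arg1 they were Apoc2 (0.913), F10 (0.897), Msr1 (0.893), F13a1 (0.885) and Ms4a7 (0.882). F10, Flt1 and Ms4a7 belong to marker lists that placed cells in classes, and F13a1 belongs to the border-type list. Profiles of a library share its depth and its free RNA. Genes under a mean of 20 CPM over the profiles were not ranked. Slc7a2 was among these, and correlated at 0.902 with Arg1 and 0.830 with Nos2.

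Over the 7 macrophage-like profiles alone, with 5899 genes, the neighbours changed. Those of Nos2 were Gbp4 (0.997), Upp1 (0.997), Igtp (0.993), Parp4 (0.993) and Gbp6 (0.992). Gbp4, Gbp6 and Igtp encode interferon-inducible GTPases. Those of Arg1 were Dap3 (0.968), Eefsec (0.968), Ppfia1 (0.957), Psmd8 (0.955) and Psmb1 (0.950). Nos2 itself correlated at 0.508 with Arg1, 0.783 with Ass1, 0.702 with Arg2, -0.714 with Gch1 and -0.772 with Odc1. These are descriptions over 7 points that share the treatment groups.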

How the data were processed

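The deposited files hold UMI counts per gene and barcode from 10x 3′ v3.1 libraries, 1 library per pool, per the labels' protocols. The submitters' processing notes name Cell Ranger 2.2.0, Seurat 5 and GRCm39, while the matrix headers name version 7.0.0 of cellranger; the counts are raw and no cell annotation was used here. Gene coordinates were not used, and promoter windows came from RefSeq on GRCm38.p6.

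The cell filter asked for 300 detected genes or more and for mitochondrial UMIs of no more than 10%. Scrublet in scanpy 1.11.5 marked 11 cells by its automatic threshold, so the highest scores were removed at 0.8% of a library per 1000 barcodes, 1964 cells in all. Cells were gated by the number of markers detected, and the thresholds were set after the data were seen. The members, lists and tests were chosen with earlier results of these data known. UMIs were summed per library and class, for classes with at least 30 cells in every library. They were tested with edgeR (quasi-likelihood, TMM, filterByExpr, R) in an additive model of PT2385 and ICB, and with 1 mean per group for the combination contrasts and the interaction. Benjamini-Hochberg adjustment ran over all genes of a class. The additive edgeR fit of the PT2385 effect was tried on simulated macrophage-like counts. That trial did not cover the gates, the combination contrasts or the shares of cells. Shares of cells were compared by exact permutation over libraries in scipy 1.17.1.

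All 9 members were named. Of the 53 further genes, those called at an adjusted p under 0.05 in macrophage-like or microglia-like cells, with at least 20 CPM there, were named. Genes called only in other classes were not named, except Smox. A result for 1 gene of that list is not reported here. Alternatives were DESeq2, other size factors, no filter on low counts, looser and stricter gates, a stricter cell filter, doublets kept, 1 mean per group, and each library left out. The looser gate asked for fewer markers but held fewer macrophage-like cells, 9356 against 12520. It placed 8059 cells in more than 1 class, against 1954, and such cells were not used.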

Additional observations from a re-analysis of the deposited data

Results flagged for a closer look

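Nos2 and Arg1 UMIs were also present in the 5918 cells that no gate took, which enter no comparison of the report. These cells were shallow, with a median of 2145.5 UMIs. They were singled out because several treated libraries stood above the untreated library there. Nos2 stood at 8.48 and 48.9 CPM in combination 1 and combination 2, at 369 and 367 CPM in PT2385 1 and PT2385 2, and at 6.24 and 10.2 CPM in ICB 1 and ICB 2, against 42.4 CPM in the untreated library. Arg1 stood at 23.8 and 97.4 CPM in combination 1 and combination 2, at 447 and 527 CPM in PT2385 1 and PT2385 2, and at 155 and 270 CPM in ICB 1 and ICB 2, against 73.6 CPM in the untreated library. Combination 1 for both genes, and ICB 1 and ICB 2 for Nos2, were below the untreated library. The libraries of PT2385 alone were thus the highest for both genes, as they were in the macrophage-like cells. How much of this signal is free RNA was not tested.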

How the results depend on the processing

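In macrophage-like cells the Nos2 PT2385 effect of 2.91 (log2) passed the threshold with DESeq2 (2.92) and without the filter on low counts (2.91), and ran between 2.33 and 3.26 over single libraries left out. The Arg1 PT2385 effect there ran between -0.31 and 0.87, and was -0.31 without the untreated library. The ICB effect ran between -2.16 and -1.26 for Nos2 and between -1.19 and -0.02 for Arg1. Nos2 in monocyte-like cells kept its PT2385 call under all 15 alternatives, at 2.85 to 3.43 over the leave-outs.

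Counts of called genes depended strongly on the setting. For PT2385 in macrophage-like cells 19 genes became 0 with 1 mean per group, 743 with DESeq2, 146 without the filter, 55 with the looser and 4 with the stricter gate, and 0 to 755 over the leave-outs, with 307 without ICB 1 and 755 without ICB 2. For ICB in these cells 0 became 58 with DESeq2, 2 without the filter and 0 to 6 over the leave-outs. For PT2385 in monocyte-like cells 308 became 1113 without the filter, 177 with the stricter gate and 4 to 694 over the leave-outs, with 4 without the untreated library. For ICB there 1 became 2 with 1 mean per group, 38 with DESeq2, 318 without the filter, 3 with the looser gate and 0 to 31 over the leave-outs. For ICB in the double-marker cells 323 became 1305 without the filter, 1264 with the looser gate, 61 with the stricter gate and 37 to 948 over the leave-outs. The cause was not tested.

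The difference in the share of macrophage-like cells with both genes, 15.0 percentage points, was 10.3 points after thinning and 10.9 to 19.8 over the leave-outs (exact permutation p = 0.1 to 0.267). With the absolute difference of means as statistic, chosen after seeing the data, its exact permutation p was 0.0857. The median odds ratio of 2.06 was 1.92 after thinning, 1.99 with the looser gate and 2.37 with at least 2 UMIs of each gene, and ran between 2.05 and 2.17 over the leave-outs.

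Among the single members these signs turned. With the looser gate they were Slc7a2 in macrophage-like cells (PT2385, 0.0046) and, in monocyte-like cells, Srm (PT2385, 0.014) and Asl (ICB, 0.026). With the stricter gate it was Asl in monocyte-like cells (PT2385, 0.11), and with 1 mean per group Arg1 there (ICB, 0.10). Over the leave-outs in macrophage-like cells the PT2385 effect ran between -0.022 and 0.37 for Ass1 and between -0.55 and 0.51 for Slc7a2, and the ICB effect between -0.084 and 0.31 for Srm. In monocyte-like cells the PT2385 effect ran between -0.83 and 0.13 for Srm, -0.11 and 0.038 for Asl, -0.62 and 1.28 for Arg1, and -0.034 and 0.57 for Arg2. The ICB effect ran there between -0.33 and 0.47 for Srm, -0.089 and 0.065 for Asl, -0.69 and 0.12 for Slc7a2, -1.51 and 0.38 for Arg1, -0.25 and 0.081 for Odc1, and -0.073 and 0.14 for Gch1. No paired analysis was possible because the labels number mice and not replicates, and the replicate numbers used here follow the order of the records and pair nothing. Conventional dendritic-like cells have no fit with the looser gate, since a library then held under 30 of them.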

Other observations

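The 83 neural or glioma-like cells held 67.3 CPM of Nos2 over all libraries, from 186 UMIs, of which 133 were in 4 cells of combination 2 and 34 in 5 cells of the untreated library. Most of these libraries held few such cells, between 1 and 35, with median UMIs of 13778 to 48545 per cell.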
